A study of Mus musculus with 7 samples.

Results

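Open chromatin was described at the loci of 10 genes of TGF-β signalling, which are the ligands *Tgfb1*, *Tgfb2* and *Tgfb3*, the receptors *Tgfbr1*, *Tgfbr2* and *Tgfbr3*, the receptor-regulated Smads *Smad2* and *Smad3*, and the inhibitory Smads *Smad6* and *Smad7*. A locus was taken as the gene body and 20 kb on either side, with gene positions from GENCODE M21 on mm10, and all called ATAC-seq peaks that touched it were counted in each library. The 10 genes are 10 of 21951 protein-coding genes, and their loci cover 1137 kb in all. Peaks of the 7 libraries that touched or overlapped were merged into regions, and 121 of 104346 regions in the series lie at the 10 loci.

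TGF-β ligands are secreted in a latent form, and once freed they bring together a type II and a type I receptor kinase at the cell surface. The type I receptor then phosphorylates Smad2 and Smad3, which join Smad4, enter the nucleus and act on target genes with other transcription factors, while Smad6 and Smad7 restrain the pathway. TGF-β maintains mesenchymal genes in fibroblasts, and it is known as a barrier to the mesenchymal-to-epithelial transition at the start of reprogramming.

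The study followed mouse embryonic fibroblasts (MEFs) on their way to pluripotency and asked how the chromatin changes after the reprogramming factors Oct4, Klf4, Sox2 and Myc (OKSM) are switched on. In the 6 MEF-derived libraries the *Col1a1* locus held an OKSM cassette under control of doxycycline, and the ROSA 26 locus held rtTA, the transactivator that doxycycline switches on, so that the uninduced cells had both transgenes as well. They were collected without doxycycline (day 0) or after 1, 2, 3, 6 and 9 days with doxycycline at 2 µg/mL, and the other library came from untreated embryonic stem cells (ESCs). In the reprogramming protocol of the paper, the share of serum was raised when doxycycline was added. Medium for ESCs was used once the first colonies emerged, between days 6 and 9. Time with doxycycline and the change of medium thus cannot be told apart. The culture protocol names the ESC line as Bruce-4, although the genotype entered for that library is that of the MEFs. The labels do not give the age or the number of the embryos. Each time-point was a single library of the whole culture, so that no value has a replicate, no p-value between libraries was computed, and fewer open cells cannot be told apart from less opening per cell.

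ATAC-seq reads open chromatin by the cuts of Tn5 transposase, and the values used here are the positions of peaks called in each library on its own. The libraries held between 27074 peaks (ESCs) and 61241 peaks (day 0), with the fewest among the doxycycline libraries on day 9 (33007) and day 2 (33174). The lists hold no score and the common depth of the libraries is not given in the sources used here, so a missing peak means that none was called and not that the site was closed. Of 9 fibroblast markers 7 had a peak at a transcription start site (TSS) on day 0, all but *Prrx1* and *Postn*, and 0 of 9 had a TSS peak in ESCs. Of 8 ESC markers 3 had a TSS peak in ESCs (*Pou5f1*, *Esrrb* and *Zfp42*), and *Nanog*, *Sox2*, *Tdgf1*, *Dppa5a* and *Tfcp2l1* had none, while 4 of the 8 had one on day 0. Of 4 endothelial markers 4 had a TSS peak on day 0 and 1 in ESCs, and what other cells in the MEF culture add to the day 0 peaks was not tested.

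The sequences below are shown because they lie in the regions on which the descriptions turn, and no exon overlaps them. They are reference sequence of mm10, 5′ to 3′ along the strand of the gene. Capitals mark matches, on either strand, to 7 motifs, which are AP-1 (TGACTCA or TGAGTCA), TEAD (CATTCC or GGAATG), the Oct4 octamer (ATGCAAAT or ATTTGCAT), Sox (ACAATG or CATTGT), Klf (CACACCC or GGGTGTG), the Smad palindrome (GTCTAGAC) and the CAGA box, the short Smad-binding element (CAGAC or GTCTG). The Smad palindrome and the CAGA box share letters, but neither holds the other. A match describes the letters and is not a binding site shown by these data. The promoter of *Tgfbr2* is the stretch upstream of the 5′ end of the gene (chr9:116175361-116175660, minus strand), and the intronic sequence of *Tgfbr2* is the centre of a region 22.3 kb into the gene (chr9:116152925-116153224, minus strand). Both had peaks in the 6 MEF-derived libraries and none in ESCs, and so did the centres of intronic regions of *Smad3* (chr9:63677888-63678187, minus strand) and *Smad6* (chr9:63980372-63980671, minus strand).
Tgfbr2 promoter: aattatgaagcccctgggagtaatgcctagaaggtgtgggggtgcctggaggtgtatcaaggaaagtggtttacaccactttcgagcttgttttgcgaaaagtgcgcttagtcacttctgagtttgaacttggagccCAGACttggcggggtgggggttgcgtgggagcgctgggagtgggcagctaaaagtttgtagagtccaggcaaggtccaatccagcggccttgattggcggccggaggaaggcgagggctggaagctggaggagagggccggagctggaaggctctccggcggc
Tgfbr2 intron: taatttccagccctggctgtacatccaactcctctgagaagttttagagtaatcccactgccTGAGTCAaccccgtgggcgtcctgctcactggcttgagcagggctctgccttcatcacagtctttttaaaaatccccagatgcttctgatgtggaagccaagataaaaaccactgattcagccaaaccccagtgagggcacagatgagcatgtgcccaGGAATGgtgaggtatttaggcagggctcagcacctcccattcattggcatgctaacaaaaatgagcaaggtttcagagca
Smad3 intron: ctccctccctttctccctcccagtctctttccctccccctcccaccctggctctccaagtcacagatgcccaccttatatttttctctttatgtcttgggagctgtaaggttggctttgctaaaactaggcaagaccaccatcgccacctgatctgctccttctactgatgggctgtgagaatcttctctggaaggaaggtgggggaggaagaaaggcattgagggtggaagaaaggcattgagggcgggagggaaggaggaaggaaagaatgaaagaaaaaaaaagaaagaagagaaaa
Smad6 intron: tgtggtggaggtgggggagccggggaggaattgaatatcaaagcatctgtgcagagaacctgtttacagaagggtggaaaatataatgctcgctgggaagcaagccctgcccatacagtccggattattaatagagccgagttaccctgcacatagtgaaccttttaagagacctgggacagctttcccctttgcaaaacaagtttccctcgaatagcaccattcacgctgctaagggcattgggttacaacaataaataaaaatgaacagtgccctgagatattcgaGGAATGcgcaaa

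In the *Tgfbr2* intron an AP-1 match begins at position 63, counted from the 5′ end of the sequence, and a TEAD match at position 221. None of the 7 motifs was found in the *Smad3* sequence, and the *Tgfbr2* promoter holds 1 match to the CAGA box. The central 300 bases of the *Tgfbr2* promoter region, which reach beyond the printed stretch, held 1 AP-1 match and no CAGA box.

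The next sequences stand for other patterns. The regions in an intron of *Tgfbr3* (chr5:107222304-107222603, minus strand) and downstream of *Smad3* (chr9:63632992-63633291, minus strand) had peaks in all 5 doxycycline libraries and neither on day 0 nor in ESCs, and both windows hold 1 match to the CAGA box. The other *Tgfbr3* intron (chr5:107157475-107157774, minus strand) had a peak in all 7 libraries and holds 1 TEAD match.
Tgfbr3 intron with doxycycline peaks: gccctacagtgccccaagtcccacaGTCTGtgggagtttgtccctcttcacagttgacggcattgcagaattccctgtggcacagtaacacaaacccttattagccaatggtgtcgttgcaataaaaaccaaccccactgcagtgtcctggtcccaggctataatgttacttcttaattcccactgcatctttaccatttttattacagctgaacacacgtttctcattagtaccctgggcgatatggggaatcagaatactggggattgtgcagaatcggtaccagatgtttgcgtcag
Smad3 downstream with doxycycline peaks: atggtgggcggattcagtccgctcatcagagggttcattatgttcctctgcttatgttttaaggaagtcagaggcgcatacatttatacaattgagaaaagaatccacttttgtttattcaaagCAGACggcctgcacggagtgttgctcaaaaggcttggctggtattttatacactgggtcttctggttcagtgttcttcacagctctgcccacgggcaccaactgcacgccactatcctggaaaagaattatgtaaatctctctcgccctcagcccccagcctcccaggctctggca
Tgfbr3 intron with peaks throughout: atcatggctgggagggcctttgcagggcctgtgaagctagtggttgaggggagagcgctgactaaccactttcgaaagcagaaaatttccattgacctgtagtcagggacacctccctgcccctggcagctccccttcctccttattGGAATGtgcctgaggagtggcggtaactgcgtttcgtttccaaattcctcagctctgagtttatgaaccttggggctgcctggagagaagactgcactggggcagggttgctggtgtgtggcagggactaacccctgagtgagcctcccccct

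Across the 10 loci, 75, 67, 48, 65, 66 and 52 peaks were called on days 0, 1, 2, 3, 6 and 9, respectively, and 21 in ESCs. The ESC library was therefore the lowest by a wide margin, while days 2 and 9 were the lowest of the doxycycline days, as in the libraries as a whole. In ESCs the loci held 28% as many peaks as on day 0, and the whole library held 44.2% as many. The loci took 0.122% of day 0 peaks (exact 95% interval 0.0963 to 0.153), 0.158% of day 9 peaks (0.118 to 0.207) and 0.0776% of ESC peaks (0.048 to 0.119), where the intervals cover counting error only. The interval for ESCs overlapped those for day 0 and day 9.

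**Figure D1:**
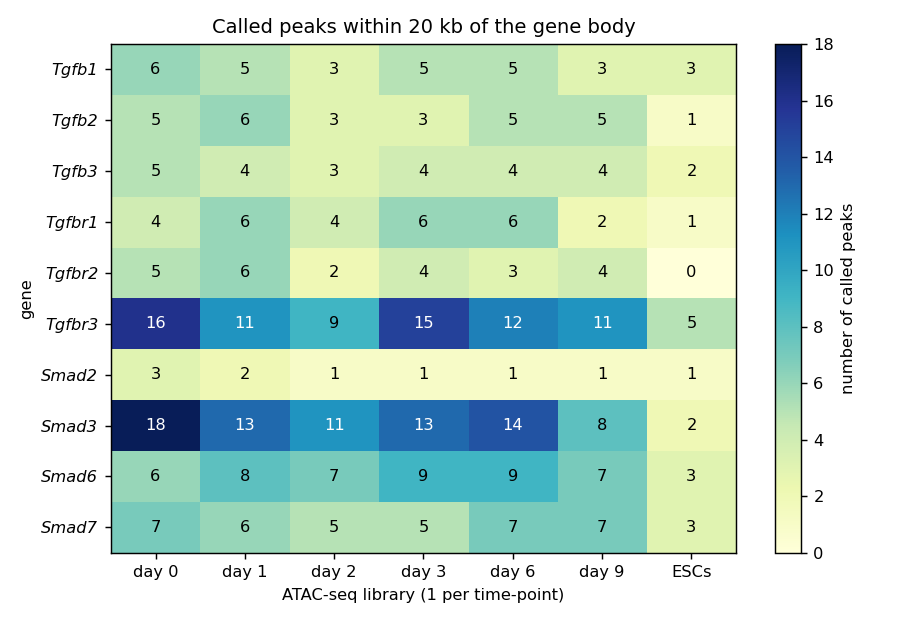
Each cell gives the number of called peaks within 20 kb of the gene body, with genes as rows and the 7 libraries as columns, and darker cells hold more peaks. *Smad3* had 18 peaks on day 0 and 2 in ESCs, *Tgfbr2* had 5 and 0, and *Smad6* had 6 on day 0 and between 7 and 9 in the doxycycline libraries.

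All 10 loci had fewer peaks in ESCs than on day 0, as did 87% of the protein-coding genes with at least 3 day 0 peaks. All 10 also had at most 50% as many, and of the 11996 protein-coding genes with at least 3 day 0 peaks 60.1% did. Among the genes with at least 6 day 0 peaks the share was 76.8%, so the count for the members stands against a high background. The count also depended on the window, with 7 of the 10 within 10 kb, 9 within 50 kb and 9 within the gene body. It was 9 when peaks at TSSs of other genes were left out. The share over all genes was not computed for these settings. The number of peaks taken from each library changed the count as well. When the 27074 widest peaks of each library were compared, the loci held 42, 42, 45, 38, 41 and 46 peaks on days 0, 1, 2, 3, 6 and 9, respectively, and 21 in ESCs. In that comparison 5 of 10 loci had at most 50% as many in ESCs (*Tgfb2*, *Tgfbr1*, *Tgfbr2*, *Smad2* and *Smad3*), and 27% of genes with at least 3 day 0 peaks did. Of the 7 members with at least 3 day 0 peaks under this limit, 3 were among the 5. The limit kept every ESC peak and set a different smallest width in each library. With 1 smallest width of 300 bp in all libraries, the loci held 49, 40, 32, 41, 41 and 27 peaks on the same days and 13 in ESCs.

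The doxycycline days moved in both directions against day 0. The members with more peaks than on day 0 numbered 4, 1, 2, 2 and 1 on days 1, 2, 3, 6 and 9, and 15.6%, 7.09%, 18.4%, 16.9% and 6.94% of genes with at least 3 day 0 peaks had more. Those with fewer numbered 6, 8, 8, 6 and 7, and 65.6%, 80.3%, 61.7%, 64% and 79.8% of the genes had fewer. In each library after day 0, most members and most genes had fewer peaks.

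Peak density differed between the genes. On day 0 it ran from 2.74 peaks per 100 kb at *Smad2* to 11.9 at *Smad3*, and in ESCs from 0 at *Tgfbr2* to 5.17 at *Tgfb1*.

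At the ligand genes together, 16, 15, 9, 12, 14 and 12 peaks were called on days 0, 1, 2, 3, 6 and 9, respectively, and 6 in ESCs. *Tgfb1*, the ligand that is most widely expressed, had 6, 5, 3, 5, 5 and 3 peaks on the same days and 3 in ESCs. Its lowest counts were thus reached on days 2 and 9 as well as in ESCs. The *Tgfb1* locus is short and crowded, with 5 other protein-coding genes in the window, and of its 2 regions with a peak in every library 1 lies at the TSS of *B9d2*, 6.1 kb upstream. The region at the 5′ end of *Tgfb1* (chr7:25686697-25687225) had peaks of 524, 290 and 219 bp on days 0, 1 and 3 and none on days 2, 6 and 9 or in ESCs. A region 2.33 kb into the gene, near internal TSSs, had peaks on days 0, 1, 3 and 6 and in ESCs. *Tgfb1* was the only member without a TSS peak on days 2 and 9, and 0.419% of protein-coding genes had its pattern of TSS peaks over the 7 libraries.

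*Tgfb2*, a ligand with wide roles in development, had 5, 6, 3, 3, 5 and 5 peaks on days 0, 1, 2, 3, 6 and 9, respectively, and 1 in ESCs. The only ESC peak belonged to a region 95.9 kb downstream of the 5′ end of the gene, past its 3′ end, which had a peak in all 7 libraries. The TSS region of *Tgfb2* (chr1:186705124-186705951) had a peak on day 0 and on each doxycycline day and none in ESCs. These 6 peaks measured 779, 299, 337, 702, 495 and 505 bp in the order of days, with no steady trend in width. Its central 300 bases were 69.7% G or C and held none of the 7 motifs.

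*Tgfb3*, a ligand needed for fusion of the palate, had 5, 4, 3, 4, 4 and 4 peaks on days 0, 1, 2, 3, 6 and 9, respectively, and 2 in ESCs. Its TSS region had peaks in all 7 libraries, and the other ESC peak, 18.1 kb into the gene, was called in no other library. Among the 27074 widest peaks of each library *Tgfb3* had 2 on day 0 and 2 in ESCs, and among peaks at least 300 bp wide it had 3 and 1. The day 0 regions 3.66 kb and 12.7 kb upstream lie within 1 kb of a TSS of *Ift43*. With peaks at TSSs of other genes left out, the change at *Tgfb3* from day 0 to ESCs was -1 peak instead of -3.

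At the receptor genes together, 25, 23, 15, 25, 21 and 17 peaks were called on days 0, 1, 2, 3, 6 and 9, respectively, and 6 in ESCs. *Tgfbr1*, the type I receptor kinase, had 4, 6, 4, 6, 6 and 2 peaks on the same days and 1 in ESCs. The counts on days 1, 3 and 6 were thus above day 0, and those on day 9 and in ESCs below it. The ESC peak was the TSS peak, which was called in all 7 libraries and measured between 680 bp (day 3) and 801 bp (day 0). Of the 8 regions of *Tgfbr1* 4 were called on doxycycline days alone, 2 of them upstream of the gene at 7.29 kb and 6.73 kb.

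*Tgfbr2*, the type II receptor kinase that binds the ligand, had 5, 6, 2, 4, 3 and 4 peaks on days 0, 1, 2, 3, 6 and 9, respectively, and 0 in ESCs. It was the only member with no ESC peak anywhere within 20 kb, and of the genes with at least 3 day 0 peaks 7.55% had none. Of the 1986 genes with 5 day 0 peaks, as *Tgfbr2* had, 6.24% had none. The promoter region (chr9:116174896-116175736) had peaks of 820, 738, 746, 582, 584 and 438 bp in the order of days. Its peaks were thus widest before and narrowest at the end of the doxycycline course, and this order, seen in the data, was not tested. The peaks covered the 5′ end of the gene on all 6 of these days. The day 0 peak reached past the printed promoter, to position 116175736. Those of all 5 doxycycline days ended inside it, from position 116175654 on day 1 to 116175410 on day 9. The region 22.3 kb into the gene (chr9:116152699-116153451) had peaks between 568 bp (day 2) and 703 bp (day 6) wide in the same 6 libraries.

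*Tgfb2* and *Tgfbr2* shared a TSS pattern, with a peak on day 0 and on all 5 doxycycline days and none in ESCs. This pattern was found at 940 protein-coding genes (4.28%), and 9.14% of the genes with a TSS peak on day 0 and in all 5 doxycycline libraries lacked one in ESCs.

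*Tgfbr3*, also called betaglycan, is a co-receptor without kinase activity that presents the ligand. It had 16, 11, 9, 15, 12 and 11 peaks on days 0, 1, 2, 3, 6 and 9, respectively, and 5 in ESCs. The count of day 3 was close to that of day 0, and ESCs were lowest. Of the 16 day 0 regions of *Tgfbr3*, however, 5 had a day 3 peak. Another 3 regions, each 200 bp wide, were called on day 3 alone. Only 0.92% of protein-coding genes had more day 0 peaks, and the gene is the longest of the 10 (183060 bp). Of its 28 regions 9 were called on day 0 alone, 10 on doxycycline days alone, 4 on day 0 and doxycycline days but not in ESCs, 3 in all 7 libraries, and 2 in ESCs but not on day 0.

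*Tgfbr3* held 3 of the 4 regions of the loci that had peaks in all 5 doxycycline libraries and neither on day 0 nor in ESCs. They lie 67.2 kb, 79.5 kb and 179 kb into the gene, all in introns. The nearest to the 5′ end (chr5:107222098-107222810) had peaks of 289, 232, 286, 597 and 663 bp on days 1, 2, 3, 6 and 9. In this region the peaks of days 6 and 9 were wider than those of days 1 to 3. The day 1 peak overlapped neither the day 2 nor the day 3 peak, and these were joined into 1 region only through the peaks of days 6 and 9. Over all regions near protein-coding genes 2.72% had this pattern, and at the 10 loci 3.31% did (0.908 to 8.25).

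**Figure D2:**
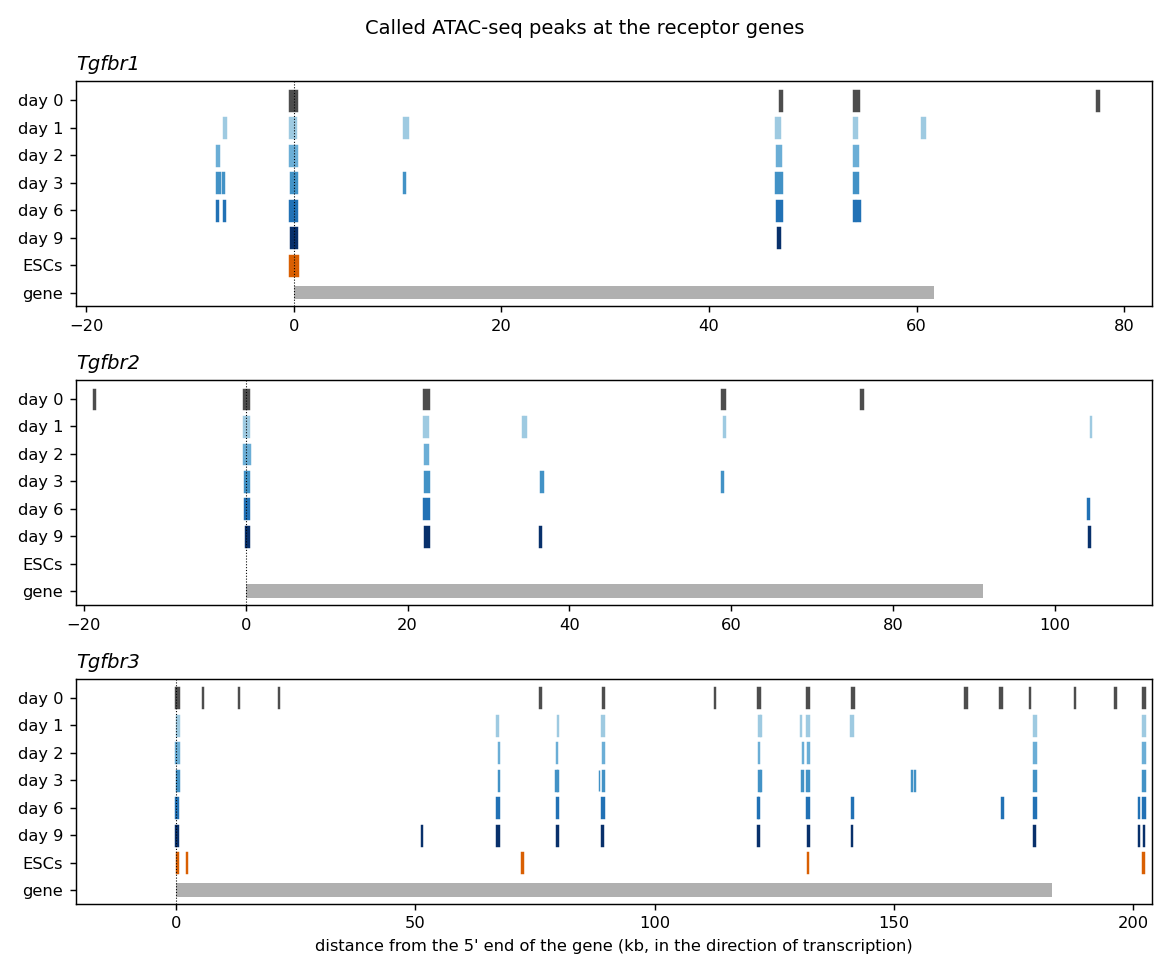
Called peaks at *Tgfbr1*, *Tgfbr2* and *Tgfbr3* are drawn to scale by their distance in kb from the 5′ end of the gene, with 1 row per library, a thin outline so that narrow peaks show, and the gene body as a grey bar. The row of ESCs is empty at *Tgfbr2*, holds the TSS peak alone at *Tgfbr1* and holds 5 peaks at *Tgfbr3*.

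At the genes of the receptor-regulated Smads, 21, 15, 12, 14, 15 and 9 peaks were called on days 0, 1, 2, 3, 6 and 9, respectively, and 3 in ESCs. At the genes of the inhibitory Smads, the counts were 13, 14, 12, 14, 16 and 14 on the same days and 6 in ESCs. Among all called peaks, the inhibitory Smad genes thus had counts near that of day 0 on all doxycycline days. The receptor-regulated Smad genes had fewer peaks on each of these days than on day 0. When each library was limited to its 27074 widest peaks, the receptor-regulated Smad genes had 9, 11, 11, 7, 8 and 9 peaks on days 0, 1, 2, 3, 6 and 9 and 3 in ESCs. They were then not below day 0 on every doxycycline day. The inhibitory Smad genes had 9, 9, 11, 9, 12 and 13, and 6 in ESCs. With peaks at least 300 bp wide the receptor-regulated Smad genes had 10, 10, 8, 7, 8 and 6, and 2 in ESCs. The inhibitory Smad genes then had 10, 9, 8, 10, 12 and 7, and 4 in ESCs.

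*Smad3*, the receptor-regulated Smad that binds DNA directly, had the most day 0 peaks of the 10 genes. It had 18, 13, 11, 13, 14 and 8 peaks on days 0, 1, 2, 3, 6 and 9, respectively, and 2 in ESCs. Only 0.633% of protein-coding genes had more peaks on day 0. Of the 22 genes with 18, *Smad3* included, 3 (13.6%) had as few as 2 in ESCs. The ESC peaks were the TSS peak, of 611 bp, and a 200 bp peak 16.1 kb into the gene that was called in no other library. The TSS peak was called in all 7 libraries with widths between 596 bp (day 2) and 719 bp (day 6).

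Inside *Smad3*, 3 regions had peaks in all 6 MEF-derived libraries and none in ESCs. They lie 20.4 kb, 80 kb and 90.9 kb from the 5′ end, and the last is near an internal TSS. The region at 80 kb (chr9:63677481-63678594), whose centre is printed above, was covered by 1 peak of 1114 bp on day 0 and by narrower peaks later, such as a pair of 407 bp and 264 bp on day 1. Another 9 regions were called on day 0 alone, with widths between 200 bp and 469 bp, and 9 on doxycycline days alone. Downstream of the gene, a region (chr9:63632605-63633678) had peaks of 607, 569, 1074, 604 and 327 bp on days 1, 2, 3, 6 and 9 and none on day 0 or in ESCs. It lies past the 3′ end of *Smad3*, in a window that also reaches *Aagab*.

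*Smad2*, which acts beside *Smad3* but does not bind DNA in its main form, had 3 peaks on day 0, 2 on day 1 and 1 in each of the other libraries. The constant peak lay over its TSS and measured between 899 bp (ESCs) and 1195 bp (day 0). *Smad2* thus had the sparsest locus of the 10, with 4 regions, 2 of them called on day 0 alone.

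*Smad6*, which mainly restrains BMP signalling, had 6, 8, 7, 9, 9 and 7 peaks on days 0, 1, 2, 3, 6 and 9, respectively, and 3 in ESCs. It was the only member above its day 0 count in all 5 doxycycline libraries, and 1.46% of genes with at least 3 day 0 peaks were. Each of these libraries held fewer peaks in all than day 0, and among the 27074 widest peaks of each library *Smad6* had 4, 5, 7, 6, 6 and 6 on the same days and 3 in ESCs. With peaks at least 300 bp wide it had 5, 5, 5, 6, 6 and 3, and 2 in ESCs. Under that limit *Smad6* was level with day 0 on days 1 and 2 and below it on day 9. Its TSS region was covered by 2 peaks in each of the 7 libraries, 1 of them near the 5′ end and the other about 1 kb upstream. The ESC peak near the 5′ end measured 321 bp, against 550 bp (day 2) to 856 bp (day 0) elsewhere. The region 41.5 kb into the gene (chr9:63980129-63980914) had peaks between 601 bp (day 2) and 773 bp (day 6) in the 6 MEF-derived libraries and none in ESCs. A region 62.6 kb into the gene had peaks on days 1, 3, 6 and 9 and in ESCs and none on day 0, each between 201 bp and 207 bp wide, which is near the smallest width of 200 bp that the lists hold.

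*Smad7*, which blocks the type I receptor and is itself induced by TGF-β, had 7, 6, 5, 5, 7 and 7 peaks on days 0, 1, 2, 3, 6 and 9, respectively, and 3 in ESCs. The counts of days 6 and 9 were thus level with day 0. Of the 7 day 0 regions of *Smad7*, however, 4 had a peak on each of these days, and some day 9 peaks lay in pairs within 1 region. Its TSS region was called in all 7 libraries, but the ESC peak (chr18:75366395-75367205) stopped short of the 5′ end of the gene at 75367529, which the peaks of the 6 other libraries covered. This region was the only 1 of 121 whose central 300 bases held the Smad palindrome, and 0.287% of all regions did. A further 3 regions, 11.2 kb, 18.8 kb and 38.3 kb from the 5′ end, had peaks in all 6 MEF-derived libraries and none in ESCs. A region 6.51 kb upstream had peaks on day 6 and in ESCs, and another 12.8 kb into the gene was called in ESCs alone.

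**Figure D3:**
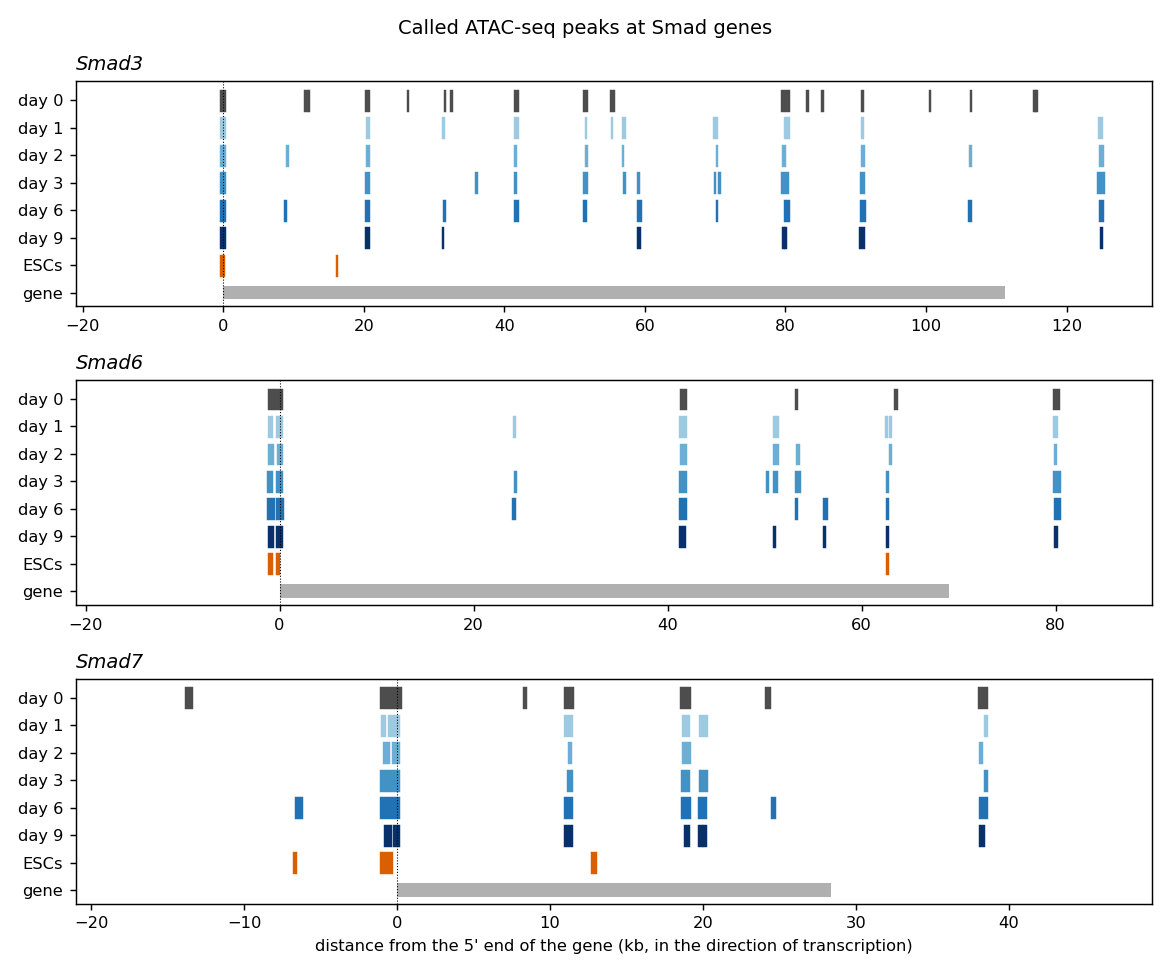
Called peaks at *Smad3*, *Smad6* and *Smad7* are drawn to scale by their distance in kb from the 5′ end of the gene, with 1 row per library, a thin outline so that narrow peaks show, and the gene body as a grey bar. *Smad3* has 18 bars on day 0 and 2 in ESCs, and 3 columns of bars at *Smad7* stop before the row of ESCs.

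Over all 121 regions, 31 (25.6%) had a peak on day 0 alone, against 22.2% of the 76506 regions within 20 kb of any protein-coding gene. Another 30 (24.8%) were called on day 0 and at least 1 doxycycline day and not in ESCs, against 20.7%. Doxycycline days alone gave 40 regions (33.1%), against 30.1%, all 7 libraries gave 12 (9.92%), against 12.6%, ESCs without day 0 gave 7 (5.79%), against 11.6%, and 1 region (0.826%), inside *Tgfb1*, was called on days 0, 1, 3 and 6 and in ESCs but missing on days 2 and 9, against 2.75% called on day 0 and in ESCs and missing on at least 1 doxycycline day. The exact intervals of the first 4 classes and of the last hold the background, and that of ESCs without day 0 (2.36 to 11.6) reaches it. The median width was 250 bp for day 0 alone, 303.5 bp for doxycycline alone and 855 bp for regions of all 7 libraries.

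**Figure D4:**
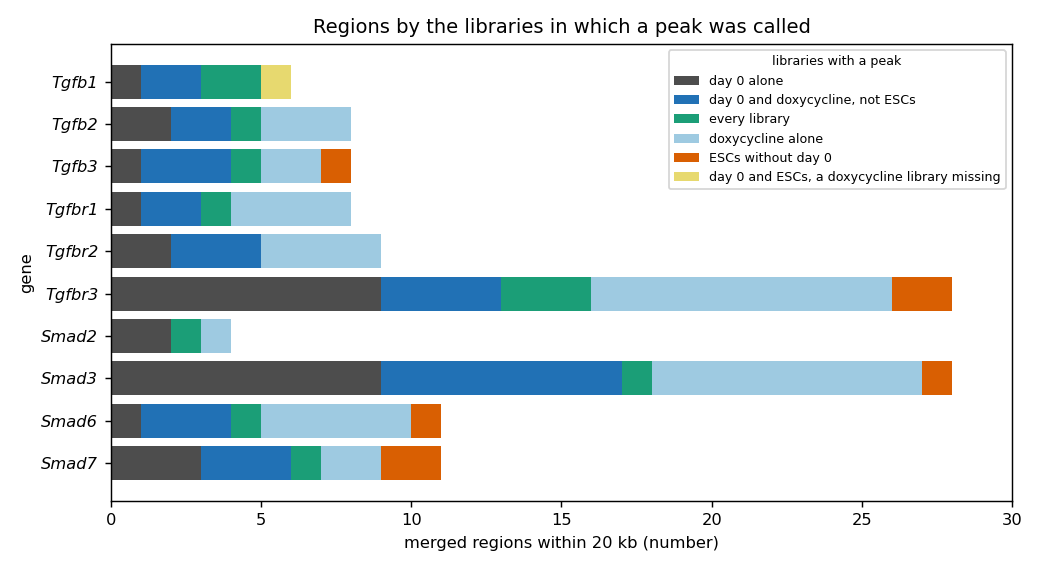
Stacked bars give the number of merged regions at each gene by the libraries in which a peak was called. *Tgfbr3* and *Smad3* hold 28 regions each, *Smad2* holds 4, and *Tgfbr2* has no region with an ESC peak.

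Regions called on day 0 and in all 5 doxycycline libraries but not in ESCs numbered 15 of 121 (12.4%, 7.11 to 19.6), and 5.22% of regions near protein-coding genes had this pattern. They were found at 8 of the 10 genes, with 3 each at *Smad3* and *Smad7*, 2 each at *Tgfbr2*, *Tgfbr3* and *Smad6*, and 1 each at *Tgfb1*, *Tgfb2* and *Tgfbr1*. The region counted at *Tgfb1* lies past its 3′ end, 32 kb from the 5′ end, and within 1 kb of a TSS of *Ccdc97*. *Tgfb3* and *Smad2* had none. The shares were 10.1% against 3.74% with the 27074 widest peaks of each library and 11% against 5.27% with peaks at least 300 bp wide. Regions with an ESC peak numbered 20 (16.5%, 10.4 to 24.4), against 27%. These intervals treat the 121 regions as independent, although they lie at 10 loci and *Tgfbr3* and *Smad3* hold 28 each.

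Of the 121 regions 74 (61.2%) had a day 0 peak, against 58.3%, 52 (43%) were called in 1 library only, against 47.4%, and 5 (4.13%) were called in ESCs alone, against 8.4%. Of the 74 regions with a day 0 peak, 38 (51.4%) also had a peak on day 1, against 49.1% of day 0 regions near protein-coding genes. Day 2 peaks were called at 33 (44.6%, against 39.5%), day 3 peaks at 36 (48.6%, against 49.8%), day 6 peaks at 40 (54.1%, against 48.5%) and day 9 peaks at 32 (43.2%, against 39.5%). These shares were near the background on each day. In ESCs 13 regions had a peak (17.6%, 9.7 to 28.2), against 26.4%.

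Of these regions 56 were distal, more than 1 kb from any protein-coding TSS, and 18 were TSS-proximal. Of the distal regions 42.9% had a day 1 peak, against 34.4%, and 37.5% a day 3 peak, against 35%. Day 2 peaks were called at 21 of them (37.5%, 24.9 to 51.5), against 23.5%, day 6 peaks at 25 (44.6%, 31.3 to 58.5), against 32.5%, and day 9 peaks at 19 (33.9%, 21.8 to 47.8), against 22.5%. The interval for day 2 lay just above the background, and those for the other doxycycline days held it. In ESCs 4 of 56 distal regions had a peak (7.14%, 1.98 to 17.3), against 7.57%, so the distal regions were in ESCs as seldom called as elsewhere. Of the 18 TSS-proximal regions, 14, 12, 15, 15 and 13 had a peak on days 1, 2, 3, 6 and 9, that is 77.8%, 66.7%, 83.3%, 83.3% and 72.2%, against 78.5%, 71.6%, 79.6%, 80.5% and 73.8%. Their ESC peaks numbered 9 (50%, 26 to 74), against 64.1%. The TSS-proximal share of the day 0 regions was 24.3% (15.1 to 35.7), against 33.2%.

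**Figure D5:**
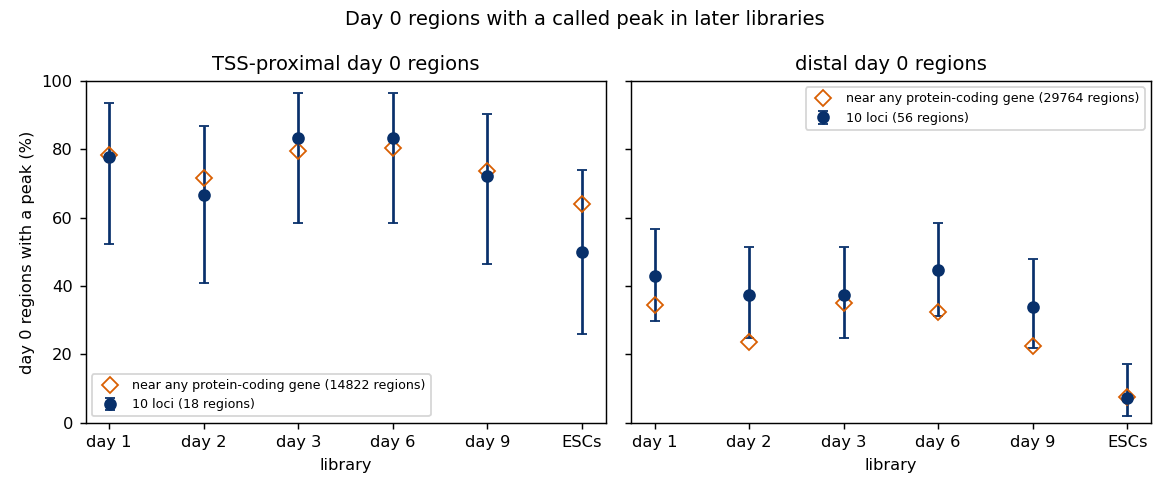
The share of day 0 regions with a called peak in each later library is plotted in percent for TSS-proximal (left) and distal regions (right). Filled circles are the 10 loci with exact 95% intervals, and open diamonds are all day 0 regions within 20 kb of a protein-coding gene. The distal regions of the loci sit between 33.9% and 44.6% on doxycycline days and at 7.14% in ESCs.

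A TSS peak, within 1 kb of any annotated TSS, was found at 10 of 10 genes on days 0, 1, 3 and 6, at 9 on days 2 and 9, and at 8 in ESCs. The share of all protein-coding genes was 59.6%, 55.7%, 51.6%, 56.4%, 57.3% and 53.4% on days 0, 1, 2, 3, 6 and 9, respectively, and 50.3% in ESCs. *Tgfb3*, *Tgfbr1*, *Tgfbr3*, *Smad2*, *Smad3*, *Smad6* and *Smad7* had a TSS peak in all 7 libraries, as did 42.6% of protein-coding genes and 71.4% of those with a TSS peak on day 0. When only the 5′ end of the gene counted, *Tgfb1* had no peak on days 2, 6 and 9 or in ESCs.

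The 300 bases at the centre of each region were searched for the 7 motifs. Over all 121 regions, octamer, Sox and Klf matches were found in 3.31%, 15.7% and 11.6%, against 3.19%, 16.5% and 11.1% in the whole series. Among distal regions with a day 0 peak 20 of 56 held an AP-1 match (35.7%, 23.4 to 49.6), against 28.1% of such regions in the whole series. Among distal regions called on doxycycline days alone 2 of 39 did (5.13%, 0.627 to 17.3), against 12.4%. AP-1 matches were thus more frequent in distal day 0 regions than in distal regions of doxycycline days alone, at the loci as in the series. Distal regions called on day 0 and doxycycline days but not in ESCs held one in 7 of 23 (30.4%, 13.2 to 52.9), against 31.5%. The CAGA box was near the background over all regions (50.4%, against 54.3%) and over all distal regions (54.9%, against 55.5%). Among distal regions of doxycycline days alone it was found in 27 of 39 (69.2%, 52.4 to 83), against 52.2%. Of the distal regions called on day 0 and all 5 doxycycline days but not in ESCs, 1 of 11 held it (9.09%, 0.23 to 41.3), against 56%. In that last group TEAD matches were found in 5 of 11 (45.5%, 16.7 to 76.6), against 26.6%. The shares in these groups rest on few regions, and the intervals are not adjusted for the number of motifs and groups searched.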

How the data were processed

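ATAC-seq of 7 mouse libraries was analysed, with 1 library per time-point. The authors used Trimmomatic on the reads, aligned them to mm10 (Bowtie2), repaired pairs with Samtools fixmate and removed duplicates with Picard. All samples were then thinned to one depth that is not stated, and MACS2 called the peaks of each library separately (q-value below 0.05). The deposited files give peak positions alone, without scores or counts, so the depth is unknown and a site under the cut-off is not listed.

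Peaks were assigned to genes of GENCODE M21 and merged with Python 3.11.15, sequences were read from mm10 with pysam 0.24.0, exact (Clopper-Pearson) 95% intervals were computed with scipy 1.17.1, and figures were drawn with matplotlib 3.10.9. The merging was tested on 500 simulated regions, of which 500 had the right libraries. An overlap was 1 bp or more, TSS-proximal meant within 1 kb, and positions count from 1. The members, lists and motifs were chosen with earlier results of these data known. All 10 members are named, and of each list of other pathway genes the 2 with the largest rise and the 2 with the largest fall in peaks from day 0 to ESCs, ties by symbol. The alternatives were peaks at least 300 bp wide, the widest 27074 peaks of each library (the planned choice by score became one by width), other windows, merging and overlap rules, and 5 of the 7 libraries. No test between libraries was possible. The sequence of 1 region is not reported here.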

Additional observations from a re-analysis of the deposited data

How the results depend on the processing

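Of 239 values under an alternative, 179 stayed within 1.5 times the reported count or change, or within the interval of a share, 60 moved and 0 reversed. Of the 60, 24 were changes in the number of peaks of a single gene from day 0 to ESCs. Lists of fewer or more peaks change counts by construction. With peaks at least 300 bp wide the loci held 49, 40, 41, 41 and 27 peaks on days 0, 1, 3, 6 and 9 and 13 in ESCs, the share of day 0 regions with a day 3 peak was 62.5%, and the classes held 14 regions of day 0 alone, 23 of doxycycline alone, 2 of ESCs without day 0 and 2 of day 0 and ESCs with a doxycycline library missing. When each library was limited to its 27074 widest peaks, the loci held 42 on days 0 and 1, 38 on day 3 and 41 on day 6. The shares of day 0 regions were then 63.4% on days 1, 3 and 9 and 65.9% on days 2 and 6, with 31.7% in ESCs, against 61.9%, 61.2%, 60.2%, 60.2%, 61.9% and 46.5% of day 0 regions near protein-coding genes on days 1, 3, 9, 2 and 6 and in ESCs. The classes held 10 regions of day 0 alone and 18 of day 0 and doxycycline without ESCs, and 5 genes had at most 50% as many ESC peaks. Within 50 kb the loci held 116 peaks on day 0 and 32 in ESCs, with 46 regions of day 0 and doxycycline without ESCs, 19 of every library and 2 of day 0 and ESCs with a doxycycline library missing. Within the gene body alone they held 34 on day 9 and 12 in ESCs. When peaks had to share 50% of their length with each other, the shares of day 0 regions were 35.1%, 24.3%, 40.5% and 25.7% on days 1, 2, 6 and 9. With 5 libraries no region (0) was called on day 0 and in ESCs and missing with doxycycline. *Tgfb3* had as many ESC as day 0 peaks among the widest peaks, within 10 kb and within the gene body.

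No paired analysis was possible because there was 1 library per time-point, and leaving out a replicate could not be done either. The depth and the reads behind a peak are unknown, and intervals cover counting error only. Those for shares of regions also treat regions of the same locus as independent.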

Other observations

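Another 52 genes of the pathway were counted in 5 lists. From day 0 to ESCs 41 had fewer peaks within 20 kb, 4 had more and 7 had as many, and 33 had at most 50% as many. Of the 46 with at least 3 day 0 peaks 40 (87%) had fewer and 32 (69.6%) at most 50% as many, beside 87% and 60.1% of protein-coding genes with at least 3 day 0 peaks. Genes of the latent complex and its activation had fewer ESC peaks in 10 of 10 cases, such as *Ltbp1*, which binds latent TGF-β to the matrix, with 27 peaks on day 0 and 2 in ESCs, and the integrin gene *Itgb6*, with 9 and 1. Other receptors had fewer in 8 of 10 cases, with 17 and 4 at *Bmpr1b* and 9 and 1 at *Acvr1*, and other Smads in 4 of 4, with 6 and 1 at *Smad1* and 5 and 2 at *Smad4*, the shared partner.

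Among 12 regulators of Smads and receptors 8 had fewer ESC peaks and 2 more. *Ldlrad4*, which holds Smads away from the receptor, had 27 on day 0 and 1 in ESCs, and the ubiquitin ligase gene *Nedd4l* had 18 and 5, while the pseudoreceptor gene *Bambi* had 1 and 2 and the corepressor gene *Tgif1* 5 and 6. Among 16 target genes 11 had fewer ESC peaks and 2 more, with 10 and 3 at *Id3*, 6 and 0 at *Tgfbi*, 3 and 4 at the cell cycle inhibitor gene *Cdkn1a*, and 1 and 2 at *Snai2*. The sum over the 52 genes was 354, 241, 193, 256, 248 and 197 peaks on days 0, 1, 2, 3, 6 and 9, respectively, and 133 in ESCs, so that the doxycycline days lay between.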
